A study of Mus musculus with 3 samples.

Results

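The genes described here are 10 regulators of mitochondrial biogenesis, *Nrf1*, *Gabpa*, *Gabpb1*, *Ppargc1a*, *Ppargc1b*, *Pprc1*, *Esrra*, *Tfam*, *Tfb1m* and *Tfb2m*, which were chosen by symbol and matched by Ensembl identifier to 10 of the 50686 genes of a count table. They were measured in poly(A) RNA of 3 stable BCR::ABL1+ cell lines, called line 1, line 2 and line 3 after their replicate numbers, with 1 library each. The lines grew out of C57BL/6 mouse bone marrow that was transduced with the p185 form of BCR::ABL1, are labelled Pre/Pro-B-cells, and all share the homozygous kinase inactive K43M allele of CDK6 (Cdk6 KM/KM). Neither the age of the mice nor whether the lines came from separate animals is given in the sources used here, and the spread between lines may include both. No other genotype was analysed here, and the comparisons are between lines of 1 genotype.

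Mitochondria carry a small genome of their own, whereas most proteins of the respiratory chain and all proteins that copy and transcribe the mitochondrial DNA are encoded in the nucleus. NRF-1 (*Nrf1*) and GABP, also called NRF-2 and formed by a DNA-binding ETS subunit (*Gabpa*) and a partner subunit (*Gabpb1*), are transcription factors that bind the promoters of many of these nuclear genes. The coactivators of the PGC-1 family (*Ppargc1a*, *Ppargc1b* and *Pprc1*) bind such factors and the orphan nuclear receptor ERRα (*Esrra*), and TFAM, TFB1M and TFB2M are encoded among their target genes and act in the organelle. The study asked how CDK6 relates to genes of oxidative phosphorylation and took up NRF-1 as a factor at their promoters.

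Libraries held 21569845, 19633463 and 25773221 counts in lines 1, 2 and 3. All 12 B-lymphoid markers listed were found, at 1 CPM (counts scaled to 1000000 library counts) or more in each line except *Dntt*, while *Cd3e*, *Cd3g* and *Cd8a* of T cells, *Elane* and *Ly6g* of myeloid cells, *Hba-a1* and *Pf4* of the erythroid and megakaryocytic lineages, *Ncr1* of NK cells and *Col1a1* and *Pdgfra* of stroma were at 0 in every line. The summed level of the B-lymphoid markers ranged from 3870 to 4394 CPM, and that of the 6 myeloid markers from 1.75 to 3.93 CPM. *Pecam1*, listed with stroma, had from 49.5 to 99.7 CPM and is also expressed by B-lymphoid precursors. *Cdk6* itself had 450, 334 and 239 CPM in lines 1, 2 and 3, which cannot tell the K43M transcript from the wild type one.

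Since NRF-1 is a factor the study took up, the promoter windows of the regulators were read from RefSeq (GRCm38.p6, the assembly of mm10), from 250 bases before to 50 after the annotated start. RefSeq windows were matched for 9 of the 10 genes and *Ppargc1b* was not matched. *Nrf1* and *Gabpb1* had 2 windows each. The NRF-1 core was searched as GCGCANGCG, the ETS core bound by GABP as CCGGAAG, the ERR half-site as AAGGTCA, the YY1 core as AAGATGGC, the E-box of MYC and its relatives as CACGTG and the SP1 box as GGGCGG, all on both strands, and no motif match overlapped another. The NRF-1 core was found in 3 of the 11 windows, the first of *Gabpb1* and those of *Tfb2m* and *Esrra*, against 6.25% of all 32851 windows. The ETS core was found in 2 of the 11 windows, those of *Gabpa* and *Tfam*, against 8.86% of all windows. These 5 windows are shown 5′ to 3′ in the direction of the gene, with the NRF-1 or ETS core in capitals, which in *Tfb2m* and *Gabpa* is read on the other strand and so appears reversed and complemented. That of *Gabpb1* lies at chr2:126675543-126675842 (minus strand) and holds the NRF-1 core, that of *Tfb2m* at chr1:179546227-179546526 (minus strand) with the NRF-1 core, that of *Esrra* at chr19:6921759-6922058 (minus strand) with the NRF-1 core, that of *Gabpa* at chr16:84834874-84835173 (plus strand) with the ETS core, and that of *Tfam* at chr10:71237995-71238294 (minus strand) with the ETS core.
Gabpb1 (NRF-1 core): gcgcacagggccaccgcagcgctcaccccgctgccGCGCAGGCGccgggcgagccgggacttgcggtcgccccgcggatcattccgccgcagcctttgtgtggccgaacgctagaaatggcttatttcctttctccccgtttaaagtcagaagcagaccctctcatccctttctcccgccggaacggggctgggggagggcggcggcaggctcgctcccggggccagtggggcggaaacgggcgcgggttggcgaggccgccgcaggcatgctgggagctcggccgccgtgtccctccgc
Tfb2m (NRF-1 core): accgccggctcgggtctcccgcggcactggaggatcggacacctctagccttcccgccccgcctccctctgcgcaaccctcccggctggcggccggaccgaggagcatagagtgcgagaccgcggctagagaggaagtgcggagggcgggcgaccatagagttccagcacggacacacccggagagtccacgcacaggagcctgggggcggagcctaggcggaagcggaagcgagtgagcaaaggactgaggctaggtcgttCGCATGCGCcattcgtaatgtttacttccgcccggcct
Esrra (NRF-1 core): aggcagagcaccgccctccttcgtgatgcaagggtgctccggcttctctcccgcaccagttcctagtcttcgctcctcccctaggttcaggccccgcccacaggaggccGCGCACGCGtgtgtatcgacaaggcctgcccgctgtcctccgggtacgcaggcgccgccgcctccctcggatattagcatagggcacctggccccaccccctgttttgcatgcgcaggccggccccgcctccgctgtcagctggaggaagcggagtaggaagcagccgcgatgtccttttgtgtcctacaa
Gabpa (ETS core): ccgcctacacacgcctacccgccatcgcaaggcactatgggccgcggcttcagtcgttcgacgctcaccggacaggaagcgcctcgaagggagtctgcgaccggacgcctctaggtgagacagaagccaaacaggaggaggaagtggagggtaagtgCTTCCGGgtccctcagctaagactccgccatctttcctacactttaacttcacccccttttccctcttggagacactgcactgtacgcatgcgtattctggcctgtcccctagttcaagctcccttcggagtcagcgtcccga
Tfam (ETS core): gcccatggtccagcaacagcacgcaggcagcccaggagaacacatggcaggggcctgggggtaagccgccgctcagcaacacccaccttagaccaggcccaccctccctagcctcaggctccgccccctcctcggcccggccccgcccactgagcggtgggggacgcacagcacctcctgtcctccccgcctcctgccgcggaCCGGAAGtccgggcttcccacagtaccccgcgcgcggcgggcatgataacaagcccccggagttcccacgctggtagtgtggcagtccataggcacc

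With the first transcribed base as 1, the NRF-1 core began 215 bases before the start of *Gabpb1* and 141 bases before that of *Esrra*, whereas in *Tfb2m* it began at base 13 of the transcript. The ETS core began 47 bases before the start of *Tfam* and 93 bases before that of *Gabpa*. The SP1 box was found in 6 of the 11 windows, against 35.7% of all windows. These were the first windows of *Nrf1* and *Gabpb1* and those of *Tfam*, *Tfb1m*, *Tfb2m* and *Esrra*. The YY1 core was found for *Gabpa* only (2.75% of windows), and the ERR half-site (4.72%) and the E-box (7.15%) for none of the 9. The window of *Ppargc1a*, the regulator without counts in these lines, held none of the 6 motifs, as did that of *Pprc1*, the regulator with most counts, and the second windows of *Nrf1* and *Gabpb1*. The GC content was 48.7% for *Ppargc1a*, 50.0% for *Pprc1*, 77.0% and 46.3% for the first and second window of *Nrf1* and from 59.3% to 71.3% for the other windows, with a median of 52.7% over all windows. A match is a description of the letters, binding was not analysed here, and the start used in these cells may differ from that in RefSeq.

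**Figure D1:**
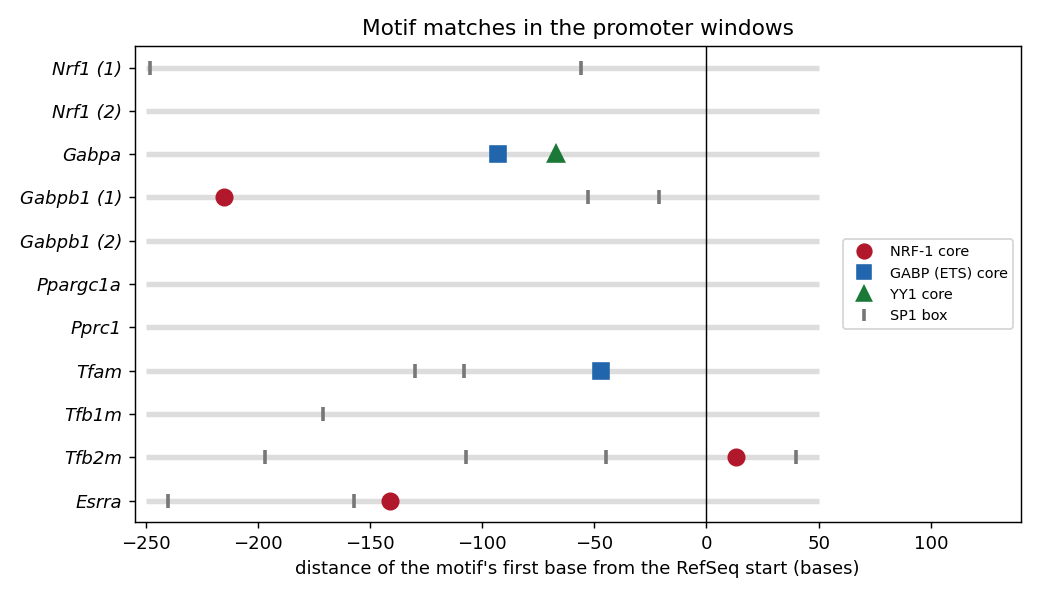
Motif matches in the RefSeq promoter windows of 9 regulators, with the distance of the first base of each match from the annotated start in bases on the horizontal axis and 1 grey bar per window of 300 bases, where (1) and (2) are the windows of genes with 2 starts. The NRF-1 core was matched in *Gabpb1*, *Tfb2m* and *Esrra* and the ETS core in *Gabpa* and *Tfam*, while *Ppargc1a*, *Pprc1* and the second windows of *Nrf1* and *Gabpb1* held no match.

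Transcripts of 9 of the 10 regulators were detected in every line, and *Ppargc1a* was the exception with 0 counts in all 3. Per kilobase of annotated exon, the highest level was that of *Pprc1* with 43.5 ± 1.62 CPM per kb, followed by *Gabpa* with 29.3 ± 1.73 and *Tfam* with 21.99 ± 0.395 CPM per kb (SD, n = 3 lines each). *Esrra* had 10.1 ± 1.80, *Nrf1* 9.13 ± 0.593 and *Gabpb1* 8.42 ± 0.798 CPM per kb, and the ranges over the 3 lines overlapped between each pair of these genes. *Ppargc1b* with 4.68 ± 0.518, *Tfb1m* with 3.38 ± 0.135 and *Tfb2m* with 2.38 ± 0.281 CPM per kb followed without overlap. Among the 13951 genes that were kept and had exon lengths, *Pprc1* exceeded 90.7% and *Tfb2m* 37.6%, so that the 9 genes spanned the middle and upper part of the expressed genes.

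The order depended on the length taken. All counts of each gene were also divided by the length of its main transcript alone, the one with the longest coding sequence. *Nrf1* then had 50.0 CPM per kb and came second after *Pprc1* with 52.5 CPM per kb. The annotated exons of *Nrf1* add up to 10.3 kb and its main transcript to 1.88 kb (1879 bases). *Gabpa* then had 33.4, *Tfam* 23.4, *Esrra* 19.8, *Gabpb1* 15.7, *Tfb1m* 8.70, *Ppargc1b* 5.61 and *Tfb2m* 2.73 CPM per kb. The places of *Nrf1* and of *Tfb1m* against *Ppargc1b* are therefore not settled by counts per gene.

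**Figure D2:**
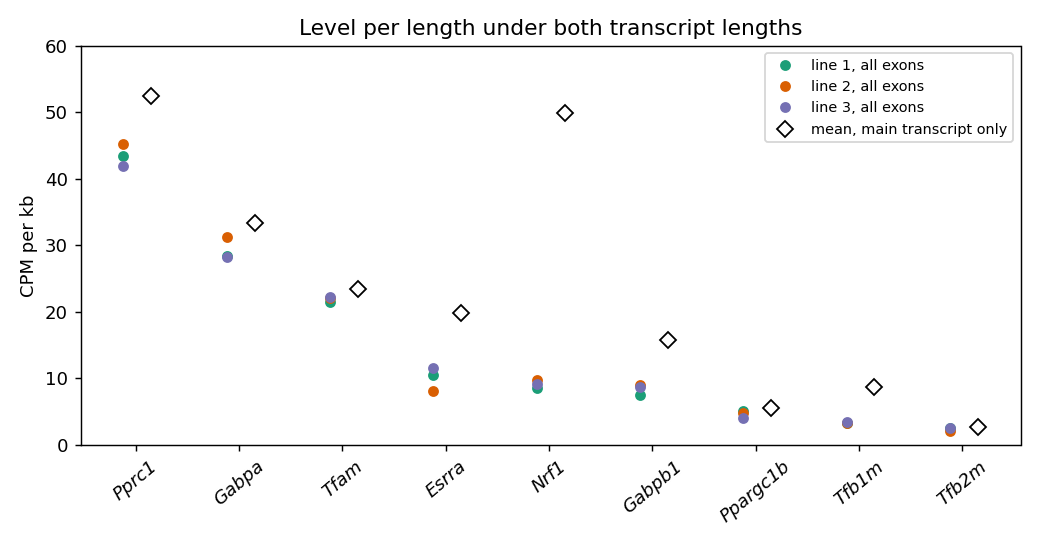
Level per length of the 9 detected regulators in CPM per kb, with 1 filled circle per line over the length of all annotated exons. An open diamond gives the mean of the same counts over the length of the main transcript alone. *Pprc1* leads under both lengths, while *Nrf1* moves from 9.13 to 50.0 CPM per kb.

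*Nrf1* (ENSMUSG00000058440.14, plus strand of chromosome 6, 30047988 to 30153458 in mm10) held 1901, 1969 and 2403 reads. The normalized levels of lines 1, 2 and 3 were 87.6, 99.7 and 94.3 CPM, on average 93.9 ± 6.10 CPM (SD, n = 3). Line 2 was highest and line 1 lowest, 1.14-fold apart. The 95% counting interval was 83.7 to 91.6 CPM in line 1 and 95.4 to 104 CPM in line 2, so that these lines were separated by more than counting error, while line 3 lay between them. When the counts of the libraries were tested for homogeneity by chi-square, which sets library against library and says nothing of conditions, *Nrf1* differed by more than counting noise (Benjamini-Hochberg adjusted p = 0.000531 over 13974 genes). Of all genes tested, 66.8% did, and *Nrf1* no longer passed without line 1 (adjusted p = 0.107) or without line 2 (adjusted p = 0.0749). The SD between lines on the log2(CPM + 1) scale was 0.093, against a median of 0.13 over 3748 genes of like level (a mean CPM within a factor of 2), 33.9% of which had a smaller SD.

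The GABP subunits also stood highest in line 2. *Gabpa* (ENSMUSG00000008976.16, chromosome 16, 84834925 to 84863779), the DNA-binding subunit, was read 3500, 3510 and 4085 times, or 161, 178 and 160 CPM in lines 1, 2 and 3, where lines 1 and 3 overlapped in their counting intervals and line 2 lay above both. *Gabpb1* (ENSMUSG00000027361.15, chromosome 2, 126627442 to 126676337), the partner subunit, was read 1265, 1381 and 1723 times, or 58.3, 70.0 and 67.6 CPM, where line 1 lay below the others. Both passed the test (adjusted p = 1.2e-05 for *Gabpa* and 8.67e-06 for *Gabpb1*), but *Gabpa* did not without line 2 (adjusted p = 0.543) and *Gabpb1* did not without line 1 (adjusted p = 0.442). Within a library, where no normalization enters, *Gabpa* exceeded *Gabpb1* 3.77-, 3.46- and 3.23-fold per kb of exon, and 2.30-, 2.12- and 1.97-fold per kb of main transcript. *Gabpb2*, which encodes the other partner subunit, had more reads than *Gabpb1* per kb of exon, with a *Gabpb1* to *Gabpb2* ratio of 0.443 ± 0.0156 (SD, n = 3). Of the exonic bases of *Gabpa*, 6.98% lie opposite exons of *Atp5j*, and the strand setting of the counting is not given in the sources used here.

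**Figure D3:**
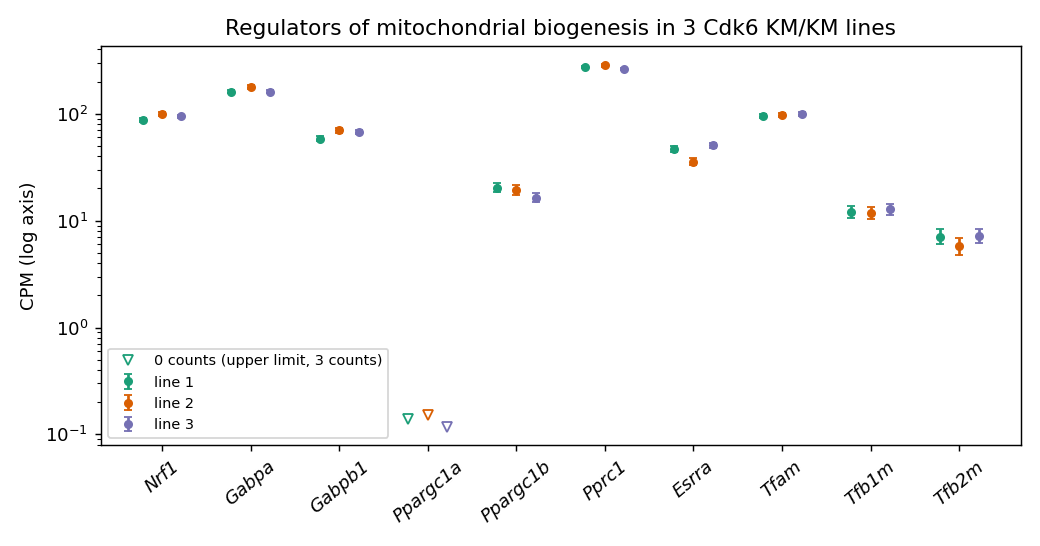
Normalized level of the 10 regulators in CPM on a log axis, with 1 point per line and bars for the 95% Poisson interval of the count, which covers counting error only. *Ppargc1a* had 0 counts in each line and is drawn as open triangles at the level of 3 counts, while the other genes lie between 5.77 and 284 CPM.

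Of the PGC-1 family, *Pprc1* was the most abundant and *Ppargc1a* was not detected. *Ppargc1a* (ENSMUSG00000029167.13, chromosome 5, 51454250 to 51567726), which encodes PGC-1α, the coactivator known from muscle, brown fat and liver, had 0 counts in 21569845, 19633463 and 25773221, which allows up to 0.138, 0.152 and 0.118 CPM in lines 1, 2 and 3 (3 counts). *Ppargc1b* (ENSMUSG00000033871.14, chromosome 18, 61298136 to 61400431), which encodes PGC-1β, was read 442, 381 and 417 times, or 20.4, 19.3 and 16.4 CPM. *Pprc1* (ENSMUSG00000055491.13, chromosome 19, 46044886 to 46072915), which encodes the PGC-1-related coactivator PRC, known as a gene induced when cells enter the cycle, was read 5920, 5606 and 6715 times, or 273, 284 and 264 CPM. Per kb of exon, *Pprc1* exceeded *Ppargc1b* 8.50-, 9.34- and 10.2-fold in lines 1, 2 and 3. Over the main transcripts the ratios were 8.57, 9.41 and 10.3, so that this order did not rest on the length.

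Both detected coactivators were lowest in line 3. *Ppargc1b* in line 3 was 0.804 of line 1, with a 95% counting interval of 0.702 to 0.921, and it passed the test (adjusted p = 0.00716) but not without line 3 (adjusted p = 0.541). *Pprc1* passed as well (adjusted p = 0.00043), although its highest and lowest lines were 1.08-fold apart, and not without line 3 (adjusted p = 0.0826). The SD of *Pprc1* between lines was 0.054, and 17.4% of genes of like level had a smaller one, while its 18241 counts were the most of the 10 genes.

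*Esrra* had the largest SD of the 9 genes over the 3 lines, which rested on line 2. *Esrra* (ENSMUSG00000024955.13, chromosome 19, 6910977 to 6921813), which encodes the receptor ERRα that works with PGC-1 coactivators, was read 1009, 703 and 1298 times, or 46.5, 35.6 and 51.0 CPM in lines 1, 2 and 3. Line 2 was lowest for *Esrra*, and its counting interval of 33.0 to 38.3 CPM lay apart from those of the other lines. *Nrf1*, *Gabpa*, *Gabpb1* and *Pprc1* were highest in that line, but only *Gabpa* exceeded both other lines there by more than counting noise. The highest line exceeded the lowest 1.43-fold, and the difference exceeded counting noise (adjusted p = 4.12e-13), though not between lines 1 and 3 alone (adjusted p = 0.0972). Its SD of 0.26 was larger than that of 75.5% of 3997 genes of like level. Without line 2 the SD was 0.080, below that of *Ppargc1b* (0.22) and *Gabpb1* (0.14). The 220 genes kept within 5 Mb of *Esrra* had median deviations of -0.029, 0.011 and 0.040 in lines 1, 2 and 3 on the log2(CPM + 1) scale, against 0.082, -0.29 and 0.21 for *Esrra*. Of its exonic bases, 2.07% are shared with genes on the same strand and 1.66% with genes on the other.

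The factors that act in the organelle did not differ beyond counting noise. *Tfam* (ENSMUSG00000003923.14, chromosome 10, 71225464 to 71238280), which encodes the protein that packages mitochondrial DNA and starts its transcription, was read 2076, 1938 and 2522 times, which gave 95.6, 98.2 and 99.0 CPM and an average of 97.6 ± 1.75 CPM (SD, n = 3). Its SD on the log2 scale was 0.026, where counting alone gives 0.031, and 3.37% of 3679 genes of like level had a smaller one. *Tfb1m* (ENSMUSG00000036983.6, chromosome 17, 3519256 to 3557781), which encodes a methyltransferase of mitochondrial ribosomal RNA, was read 263, 232 and 324 times, or 12.1, 11.8 and 12.7 CPM, with an SD of 0.053 where counting alone gives 0.088. *Tfb2m* (ENSMUSG00000026492.11, chromosome 1, 179528055 to 179546267), which encodes the initiation factor of the mitochondrial RNA polymerase, was read 154, 114 and 183 times, or 7.09, 5.77 and 7.18 CPM, with an SD of 0.15 where counting alone gives 0.12. The values for counting alone were computed without the added 1 CPM, so the scales differ. With 0.1 CPM added in place of 1, the SD was 0.026 for *Tfam*, 0.057 for *Tfb1m* and 0.17 for *Tfb2m*. None of these genes passed the test (adjusted p = 0.546, 0.689 and 0.188 for *Tfam*, *Tfb1m* and *Tfb2m*), which does not show that the lines are alike: the counting interval of line 2 over line 1 ran from 0.964 to 1.09 for *Tfam*, from 0.809 to 1.16 for *Tfb1m* and from 0.633 to 1.04 for *Tfb2m*.

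*Tfb1m* exceeded *Tfb2m* 1.33-, 1.58- and 1.38-fold per kb of exon in lines 1, 2 and 3, and 2.98-, 3.55- and 3.09-fold per kb of main transcript. The counts of *Tfb2m* carry a further limit, since 39.6% of the 50-base stretches of its main transcript also occur in *Gm1818*, an unprocessed pseudogene on chromosome 12 with 0 counts in each line. In *Tfb1m*, 6.87% of stretches also occur in *Tiam2*, which had 46, 16 and 6 counts. For the other 8 genes the share was at most 4.07%, and it was 0% for *Nrf1*, *Ppargc1b* and *Pprc1*.

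In all, 6 of the 9 genes tested differed between the libraries, or 66.7%, beside 66.8% of the 13974 genes tested. This share follows the number of reads: 47.1% of genes with fewer than 1000 counts over the lines differed, 76.3% of those with at least 1000 and fewer than 5000, and 89.0% of those with at least 5000. *Tfb1m* and *Tfb2m* belong to the first class and did not pass, *Gabpb1*, *Ppargc1b* and *Esrra* to the second and passed, and of *Nrf1*, *Gabpa*, *Pprc1* and *Tfam* in the third all but *Tfam* passed. The count fell to 4, 3 and 4 without lines 1, 2 and 3, where 54.3%, 54.5% and 47.1% of all genes tested differed. The median SD of the 9 genes was 0.093, against 0.17 over all genes tested and a median of 0.14 for genes of like level, and it fell to 0.047 without line 2. The classes of depth were chosen after the values were seen. The line that stood highest was line 2 for 4 genes, line 3 for 4 and line 1 for *Ppargc1b*. With library size alone as scaling, the highest line of *Tfam* became line 2 and that of *Tfb2m* line 1, genes that had not passed the test.

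**Figure D4:**
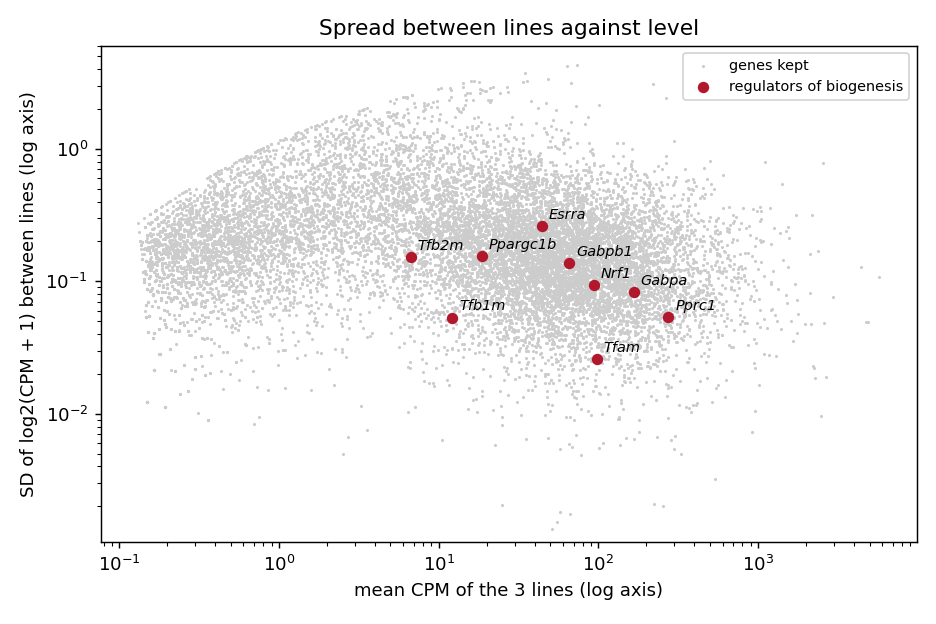
SD of log2(CPM + 1) between the 3 lines against the mean CPM, both on log axes, with 1 grey point per gene kept and red points for the 9 detected regulators. *Tfam* lies below most genes of its level with an SD of 0.026, and *Esrra* is the highest of the 9 with 0.26, which fell to 0.080 without line 2.

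Earlier results of these data had shown stretches of neighbouring genes that differ together between the lines, so each regulator was set beside the genes kept within 5 Mb of its start. The neighbours of the 9 genes, 14 around *Gabpa* and up to 220 around *Esrra*, had median deviations of at most 0.088 on the log2(CPM + 1) scale, the largest around *Tfam* in line 3. *Tfam* itself deviated there by 0.021. For *Nrf1*, the neighbours deviated by -0.031, -0.019 and 0.026 in lines 1, 2 and 3, against -0.097, 0.088 and 0.0088 for the gene. For *Cdk6*, the same measure gave 0.25, -0.042 and -0.23. Within 2 Mb, the 8 neighbours of *Tfam* deviated by 0.16 in line 3. The part of the neighbourhood in the regulators' own differences was not tested.

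**Figure D5:**
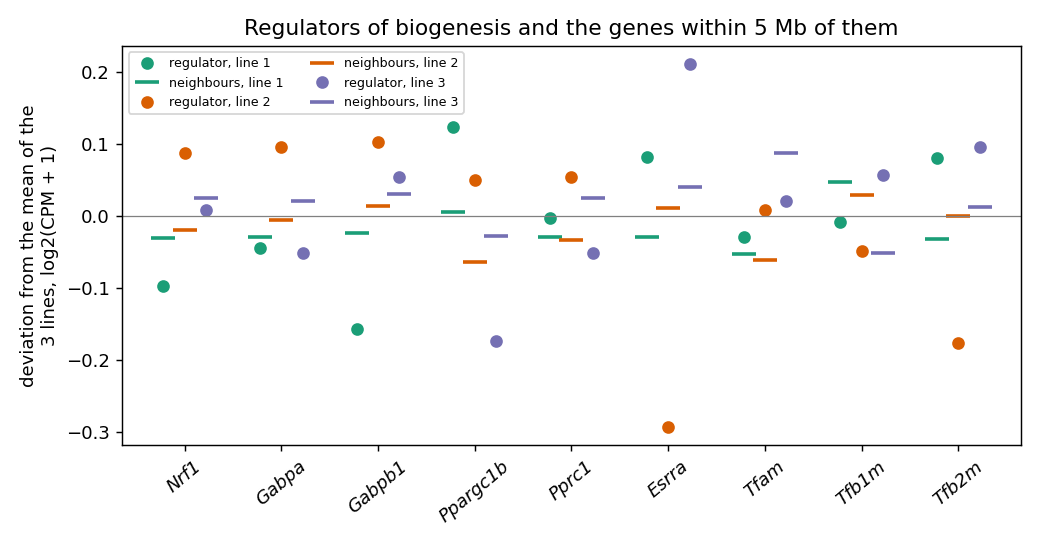
Deviation from the mean of the 3 lines on the log2(CPM + 1) scale for the 9 detected regulators (circles) and the median of the genes kept within 5 Mb of each (bars), coloured by line. *Esrra* spans from -0.29 in line 2 to 0.21 in line 3, while the bars stay within 0.088 of 0.

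The proteins that copy and transcribe mitochondrial DNA were covered by a list of 19 genes, which also holds others such as the protease *Lonp1* and the thymidine kinase *Tk2*. All 19 were kept, and 13 of them differed between the libraries (68.4%), close to the 66.8% of all genes tested. Their median SD was 0.12, against 0.17 over all genes tested and a median of 0.18 for genes of like level. The highest per kb of exon was *Lonp1*, the protease that degrades TFAM, with 40.2 CPM per kb. *Polrmt*, the mitochondrial RNA polymerase that works with TFAM and TFB2M, was named although it was outside the rule for named genes, and had 49.7, 58.3 and 51.9 CPM in lines 1, 2 and 3. The largest spread was that of *Mterf3*, a negative regulator of mitochondrial transcription, with 73.4, 38.0 and 28.1 CPM and an SD of 0.69. Its 61 neighbours within 5 Mb deviated in the same order, by 0.52, -0.057 and -0.47. The smallest spread was that of *Mterf2* with 14.1, 14.3 and 13.6 CPM. Without line 1, 6 genes of this list differed, where 54.3% of all genes tested in that fit did. The median SD of the list was then 0.062.

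Of 26 upstream regulators and partners, 22 were kept and 20 differed between the libraries (90.9%), against 66.8% of all genes tested. Of the 22, 13 had at least 5000 counts, of which 12 differed, in a class in which 89.0% of all genes did, and 8 had at least 1000 and fewer than 5000, of which 7 differed, in a class with 76.3%. The median SD of the 22 genes was 0.19, against 0.17 over all genes tested and a median of 0.13 for genes of like level. It was 0.089, 0.17 and 0.095 without lines 1, 2 and 3. Without line 1, 14 genes of this list differed, where 54.3% of all genes tested in that fit did. *Ppara* and *Pparg*, nuclear receptors that PGC-1α binds, and *Esrrg*, a relative of *Esrra*, had 0 counts in every line, and *Perm1*, a muscle regulator of the same pathway, had 2 counts in line 3 only. Their relatives *Ppard* and *Esrrb*, outside the rule for named genes, were detected. *Ppard* had 30.4, 28.5 and 30.5 CPM in lines 1, 2 and 3. *Esrrb* was read 6, 40 and 45 times, or 0.28, 2.03 and 1.77 CPM. *Myc*, which drives growth and mitochondrial genes, was the highest per kb of exon, with 715, 659 and 553 CPM. The largest SD was that of *Ccnd1* (cyclin D1), with 21.1, 17.5 and 57.4 CPM in lines 1, 2 and 3, and the smallest that of *Nfe2l1* with 165, 158 and 162 CPM. *Nfe2l1* encodes a different protein that is also abbreviated NRF1. Among 57 genes of the lists with at least 5 CPM, those nearest to *Nrf1* in their deviations over the 3 lines were *Hcfc1* (distance 0.029), a coregulator, *Gabpb2* (0.045) and *Tk2* (0.047), a mitochondrial thymidine kinase. With 3 lines such distances are a description only.

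Of 20 nuclear genes described as targets of NRF-1 or GABP, which include *Tfam*, *Tfb1m* and *Tfb2m*, 20 were kept and 15 differed between the libraries (75.0%), against 66.8% of all genes tested. Leaving out *Tfam*, *Tfb1m* and *Tfb2m*, 15 of 17 differed (88.2%). Of the 20, 13 had at least 5000 counts and 11 of these differed, where 89.0% of all genes of that depth did. The median SD of the 20 genes was 0.084, against 0.17 over all genes tested and a median of 0.12 for genes of like level. Without line 1, 9 genes of this list differed, where 54.3% of all genes tested in that fit did. The highest target per kb of exon was *Atp5b*, the catalytic subunit of the ATP synthase, with 2167, 2216 and 2233 CPM. The smallest SD was that of *Cox4i1*, a subunit of complex IV, with 371, 368 and 374 CPM, and the largest that of *Cox7b*, another subunit of complex IV, with 135, 146 and 304 CPM. The 57 neighbours of *Cox7b* were shifted the same way, by -0.32, -0.19 and 0.44 in lines 1, 2 and 3.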

How the data were processed

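Poly(A) RNA of 3 Cdk6 KM/KM BCR::ABL1+ lines was analysed. The authors trimmed reads with Trimmomatic, used STAR for alignment to mm10 and counted reads on exons of Gencode M13 genes with featureCounts; raw counts were deposited without normalization. Strand and multi-mapping settings are not given in the sources used here, and the labels and the methods name different library kits. The 6 other columns of the table were not used.

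Identifiers were matched to Gencode M21 symbols for 50376 of 50686 genes (0 rows named no gene). Levels are CPM with TMM factors of edgeR 4.0.16 (R 4.3.3), and spreads are on the log2(CPM + 1) scale. Kept were 13974 genes whose counts summed to 10 or more. Homogeneity of counts was tested by chi-square against normalized library sizes, with Benjamini-Hochberg adjustment over the genes kept and a threshold of 0.05. The statistic was tested on simulated data. The p-values set the counts of these libraries against counting error only, and depend on the number of reads as well as on the difference. With 1 library per line, a difference between lines cannot be told apart from one between library preparations. Counting intervals and the limit of 3 counts cover counting error only. Fewer cells of a type and less RNA per cell cannot be told apart. Exon lengths, positions and shared 50-base stretches came from Gencode M21, in which 3 of the 10 genes have a newer version than in the table. Python 3.11.15, numpy 2.4.6, pandas 2.3.3 and scipy 1.17.1 were used.

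Genes and lists were chosen with earlier results of these data known. Named are the 10 regulators, *Cdk6*, the marker genes, and in each list the highest gene, the genes of largest and smallest SD among those with at least 5 CPM, genes at 3 counts or fewer, and the 3 list genes nearest to *Nrf1*. Calls, levels and spreads of the regulators and the lists were also computed with library size alone, size factors of DESeq2 1.42.0, a minimum of 10 counts per line, no filter, and each line left out. Spreads were also computed with 0.1 CPM as pseudocount, and calls of the regulators with totals without mitochondrially encoded genes. Levels per kb were also computed with main transcript length, and neighbourhoods with a window of 2 Mb. Promoter matches were not varied.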

Additional observations from a re-analysis of the deposited data

How the results depend on the processing

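No paired analysis was possible because only a single group was compared. With DESeq2 size factors, library size alone, no filter, at least 10 counts in every line, or totals without mitochondrially encoded genes, 6 of the 9 regulators tested differed between the libraries, as in the report. The share of all genes that differed was 45.3% without a filter and 74.6% where each line had to hold 10 counts. It was 54.3%, 54.5% and 47.1% without lines 1, 2 and 3. Leaving out each line in turn, the number of regulators that differed ranged from 3 to 4 and their median SD from 0.0469 to 0.0965, and fewer libraries give the test less power by construction. In the same fits, 6 to 11 genes of the mitochondrial DNA machinery differed with a median SD of 0.0623 to 0.125, 14 to 17 upstream regulators with a median SD of 0.0894 to 0.168, and 9 to 12 targets with a median SD of 0.0812 to 0.0868. The summed level of the 10 regulators ranged from 765 to 786 CPM. Their summed level per kb was 133 over all exons and 212 over main transcripts. The largest median deviation of neighbours was 0.088 within 5 Mb and 0.159 within 2 Mb, where fewer genes were counted. Promoter windows of 1000 bases were not run, since they need a genome sequence that was not used here. Depth limits the statements on *Ppargc1a* and, with 451 counts in all, on *Tfb2m*.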
